A study of Mus musculus with 12 samples.

Results

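Dlk1, Rasgrf1 and Zdbf2 are 3 mouse genes expressed from the paternal copy, and CpG methylation was followed over them in stem cells, in germ cells of the embryo and in germ cell-like cells made in culture. The members were all deposited rows of the 3 genes, one row for each gene part (promoter, 5′ UTR, exons, introns, 3′ UTR), together with every CpG island and island shore that overlapped a gene or lay within 10 kb of it. This gave 21 rows of 176831 in the series, 12 of gene parts and 9 of islands and shores. Dlk1 (chr12:109452823-109463336) held 5 and 3 of these rows, Rasgrf1 (chr9:89909908-90026977) held 3 and 1, and Zdbf2 (chr1:63273265-63314576) held 4 and 5, all 3 genes on the plus strand of mm10. Of the 21 rows, 19 had a level in all 12 libraries.

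The 12 libraries of reduced representation bisulfite sequencing (RRBS, which reads CpG-rich fragments cut by the enzyme MspI at CCGG) fell into 6 groups of 2, all labelled strain C57BL6. Female embryonic stem cells (ESCs) came from fertilised blastocysts and parthenogenetic ESCs (pESCs) from activated oocytes, so that both genome copies of a pESC are maternal. Both carried an Actin-GFP transgene and had been grown on feeder cells. Primordial germ cells (PGCs) were sorted by CD61 and SSEA1 or SSEA1 alone (not given per library) from female embryos at embryonic day 9.5 and 12.5 (E9.5 and E12.5), and PGC-like cells (PGCLCs) were induced from ESCs or pESCs through epiblast-like cells and sorted for CD61 and SSEA1. The labels do not say which line, clone or embryos a library came from, so p-values measure only the spread between these libraries, and methylation levels offer no check of the cell types against RNA markers.

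In mammals, an imprinted gene is read from one parental copy because a control region nearby carries methylation laid down in only one of the parental germ lines. PGCs erase that methylation before new marks are set. Dlk1 encodes a transmembrane protein with EGF-like repeats related to Notch ligands, and the sperm-methylated region that controls it lies between Dlk1 and the noncoding RNA gene Meg3. Rasgrf1 encodes an exchange factor that activates Ras, and its sperm-methylated region lies upstream of the gene. Zdbf2 encodes a zinc finger protein. A long Zdbf2 transcript starts inside the neighbouring gene Gpr1 at a region that carries methylation from the oocyte, while the stretch upstream of the usual Zdbf2 start is methylated on the paternal copy.

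The sequences shown first are those just before the gene starts and before the far Zdbf2 start inside Gpr1. The Dlk1 window ends before the first CpG island of Dlk1 begins (chr12:109452986-109453847). The 4 lines below give the 250 bases before each RefSeq start of the 3 genes (GRCm38.p6, plus strand), with CpG sites in capitals. They are chr12:109452573-109452822 for Dlk1, chr9:89909525-89909774 for Rasgrf1, chr1:63200108-63200357 for the far Zdbf2 start and chr1:63273019-63273268 for the near one.
Dlk1 start: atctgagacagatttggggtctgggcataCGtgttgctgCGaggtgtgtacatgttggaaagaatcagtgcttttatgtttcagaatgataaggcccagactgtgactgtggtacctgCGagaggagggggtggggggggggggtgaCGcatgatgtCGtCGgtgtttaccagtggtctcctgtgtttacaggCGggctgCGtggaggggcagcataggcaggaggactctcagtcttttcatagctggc
Rasgrf1 start: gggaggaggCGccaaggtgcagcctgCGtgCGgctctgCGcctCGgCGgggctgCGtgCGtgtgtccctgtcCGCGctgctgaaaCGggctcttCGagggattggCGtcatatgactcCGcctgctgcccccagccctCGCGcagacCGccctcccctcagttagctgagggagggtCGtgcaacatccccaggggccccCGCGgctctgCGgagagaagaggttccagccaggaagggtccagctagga
Zdbf2 far start: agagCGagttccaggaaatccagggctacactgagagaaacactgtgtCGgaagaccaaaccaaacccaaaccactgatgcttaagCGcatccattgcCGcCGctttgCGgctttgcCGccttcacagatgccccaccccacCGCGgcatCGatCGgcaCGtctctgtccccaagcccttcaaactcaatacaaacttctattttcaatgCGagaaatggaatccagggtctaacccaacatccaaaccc
Zdbf2 near start: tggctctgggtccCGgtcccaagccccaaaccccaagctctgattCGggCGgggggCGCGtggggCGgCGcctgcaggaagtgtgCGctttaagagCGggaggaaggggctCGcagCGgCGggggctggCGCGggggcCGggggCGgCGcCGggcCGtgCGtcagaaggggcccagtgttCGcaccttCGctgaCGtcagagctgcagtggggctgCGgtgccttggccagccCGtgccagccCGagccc
The near Zdbf2 start held 26 CpG sites, the Rasgrf1 start 21, the far Zdbf2 start 13 and the Dlk1 start 8, against a median of 6 over 32851 RefSeq windows of that length. The MspI site CCGG, which reads the same on both strands, was found 3 times before the near Zdbf2 start and not in the other 3 windows, and 47.1% of all windows held it. The levels below are those of deposited rows and were not measured for these windows. The far Zdbf2 start lies 72907 bp before the annotated start of Zdbf2, inside Gpr1 (chr1:63182691-63214543) and 8385 bp from its nearest exon. How the deposited promoter rows were delimited is not given in the sources used here, so these windows may differ from them.

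The next 3 stretches come from island and shore rows of the gene bodies where methylation was high or changed, again with CpG sites in capitals. Gene-part rows that were also high or changed, such as the Dlk1 3′ UTR and the Dlk1 and Rasgrf1 introns, are not printed. Dlk1 island 2 (chr12:109459745-109460028) is coding sequence over its whole length of 284 bp. Zdbf2 island 2 (chr1:63309158-63309711, 554 bp) is also coding throughout, and its 300-base window richest in CpG is shown (chr1:63309295-63309594). Zdbf2 shore 3 (chr1:63309711-63311712) holds 232 coding bases, which are shown (chr1:63309711-63309942), and 1770 bases of 3′ UTR.
Dlk1 island 2: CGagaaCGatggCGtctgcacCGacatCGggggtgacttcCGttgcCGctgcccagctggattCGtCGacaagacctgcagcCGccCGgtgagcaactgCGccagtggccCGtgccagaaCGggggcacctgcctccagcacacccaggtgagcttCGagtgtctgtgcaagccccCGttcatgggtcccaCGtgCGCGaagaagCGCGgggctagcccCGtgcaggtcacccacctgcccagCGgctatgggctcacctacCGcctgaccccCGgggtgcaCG
Zdbf2 island 2: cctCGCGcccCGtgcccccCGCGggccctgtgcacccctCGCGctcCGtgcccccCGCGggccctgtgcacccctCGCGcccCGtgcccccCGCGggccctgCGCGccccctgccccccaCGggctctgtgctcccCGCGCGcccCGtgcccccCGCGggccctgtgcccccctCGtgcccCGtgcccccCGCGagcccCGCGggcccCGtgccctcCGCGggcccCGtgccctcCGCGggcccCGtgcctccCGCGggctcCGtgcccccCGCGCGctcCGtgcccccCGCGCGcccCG
Zdbf2 shore 3, coding part: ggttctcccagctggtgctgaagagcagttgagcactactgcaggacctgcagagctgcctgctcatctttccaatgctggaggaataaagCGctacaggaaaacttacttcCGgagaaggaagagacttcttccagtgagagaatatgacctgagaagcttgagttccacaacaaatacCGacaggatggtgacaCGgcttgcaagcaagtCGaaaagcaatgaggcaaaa
Zdbf2 island 2 stands apart in its sequence. It had 15.0 CpG sites per 100 bp, more than 97.97% of 14559 islands, and 65.2% of its 12-base words occurred more than once in it, against a median of 0% over all islands. It held no CCGG, as did 46 of the 14559 islands (0.3%), yet a level was listed for it in all 12 libraries. Whether the repeats or the missing cut site bear on its level was not tested. Dlk1 island 2 had 9.15 CpG sites per 100 bp and 2 CCGG sites, and none of its 12-base words was repeated. Zdbf2 shore 3 held 24 CpG sites and 1 CCGG site over its 2002 bp.

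Levels below are the percentage of CG calls that were methylated over a row. Of the 19 complete rows, 9 stayed under 5% in all 12 libraries, with a lowest value of 1.05% and a highest of 3.35%. These were the promoter rows and first islands of the 3 genes, the 5′ UTR rows of Dlk1 and Zdbf2, and the Zdbf2 intron row. Dlk1 island 1 (chr12:109452986-109453847) lay between 1.24 and 2.36%, Rasgrf1 island 1 (chr9:89908632-89911157) between 1.39 and 2.76%, and Zdbf2 island 1 (chr1:63273064-63273913) between 1.35 and 2.32%. The median of all 13715 islands with a level in every library was 1.83% in ESCs and 2.10% in E9.5 PGCs, so the first islands of the 3 genes lay near the typical island level. No such row could fall by the 10 points used here as the least difference for a call.

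**Figure D1:**
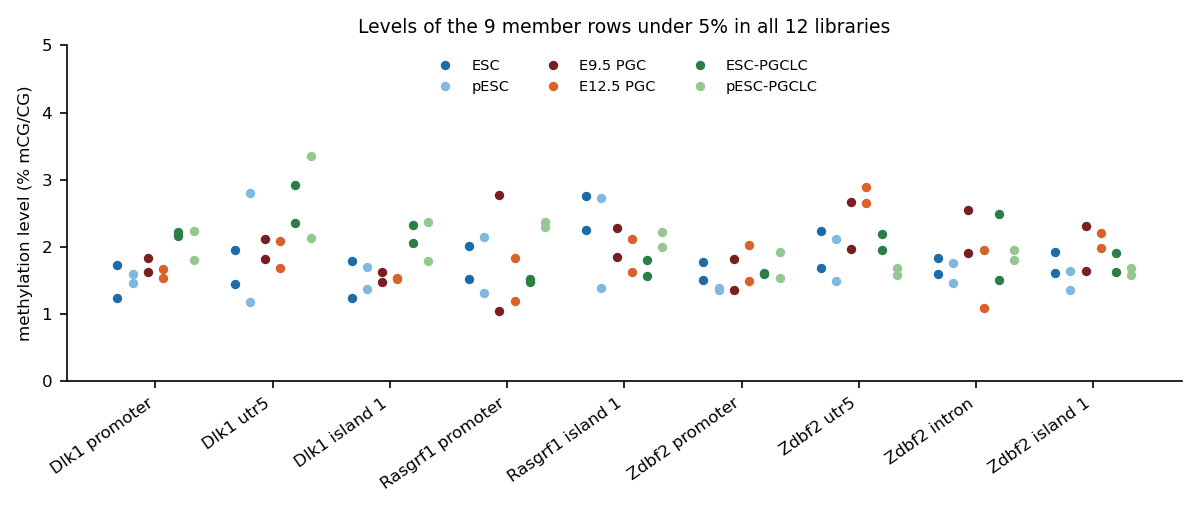
Methylation level (% mCG/CG, vertical axis) of the 9 rows under 5% in all 12 libraries, 1 point per library and 6 groups by colour. All points lie between 1.05 and 3.35%, and the groups overlap in most rows.

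Of the other 10 complete rows, Zdbf2 shore 1 lay 203 bp before the gene and the rest lay in the gene bodies. Dlk1 carried the most methylation. Its 3′ UTR row stood at 60.9 and 39.8% in the ESC libraries, 46.3 and 33.5% in pESCs, 64.2 and 70.3% in E9.5 PGCs, 37.5 and 40.4% in E12.5 PGCs, 48.9 and 46.1% in PGCLCs from ESCs, and 47.7% in both libraries of PGCLCs from pESCs. E9.5 PGCs were highest, without overlap with any other group, and E12.5 PGCs lay below both PGCLC groups without overlap. ESCs overlapped all of these groups, and pESCs overlapped E12.5 PGCs and ESC-PGCLCs but lay below pESC-PGCLCs.

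Dlk1 island 2 was at 35.02 and 17.9% in ESCs, 24.3 and 17.7% in pESCs, 55.1 and 48.3% in E9.5 PGCs, 31.0 and 33.9% in E12.5 PGCs, 37.1 and 39.2% in PGCLCs from ESCs, and 36.8 and 35.6% in PGCLCs from pESCs. E9.5 PGCs again lay above all other libraries, by 9.05 points over the nearest group. In E9.5 PGCs this island was more methylated than 94.8% of all islands, and in ESCs more than 97.5%, with a mean of 26.5% ± 12.1 (SD, n = 2).

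The Dlk1 exon row gave 15.8 and 14.4% in ESCs, 14.3 and 13.05% in pESCs, 35.7 and 34.3% in E9.5 PGCs, 19.2 and 22.1% in E12.5 PGCs, 24.1 and 24.8% in PGCLCs from ESCs, and 23.6 and 22.6% in PGCLCs from pESCs. Here all 6 groups were separate, in the order pESC, ESC, E12.5 PGC, pESC-PGCLC, ESC-PGCLC and E9.5 PGC, with gaps as small as 0.139 points between pESCs and ESCs. The Dlk1 intron row ran from 10.8% in a pESC library to 39.8% in an E9.5 library. There pESCs overlapped ESCs, pESC-PGCLCs overlapped E12.5 PGCs, and E9.5 PGCs were again highest, 7.78 points above the nearest group. Rows of one gene share CpG sites (island 2 is part of the exons), so their values are not independent.

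Rasgrf1 had 2 rows over its body. The exon row was at 18.7 and 12.5% in ESCs, 12.7 and 11.7% in pESCs, 10.6 and 9.55% in E9.5 PGCs, 5.30 and 7.44% in E12.5 PGCs, 9.91 and 4.77% in PGCLCs from ESCs, and 6.51 and 4.14% in PGCLCs from pESCs. It was the one complete body row of the 3 genes whose 4 stem cell libraries all lay above every germ cell library. The intron row stood at 21.04 and 23.7% in ESCs, then 20.7% in both pESC libraries, 29.4 and 29.9% in E9.5 PGCs, 14.3 and 18.5% in E12.5 PGCs, 21.5 and 15.8% in PGCLCs from ESCs, and 19.4 and 20.1% in PGCLCs from pESCs. E9.5 PGCs were highest there, 5.70 points above the nearest group, and E12.5 PGCs overlapped ESC-PGCLCs.

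Among the complete Zdbf2 rows, stem cell levels stayed under 10%, and germ cell levels were highest near the 3′ end. Shore 3 was at 5.28 and 6.12% in ESCs, 3.33 and 8.85% in pESCs, 44.5 and 44.0% in E9.5 PGCs, 29.5 and 27.3% in E12.5 PGCs, 31.3 and 31.2% in PGCLCs from ESCs, and 28.1 and 27.1% in PGCLCs from pESCs. All 8 germ cell libraries were at least 18.3 points above all 4 stem cell libraries. Island 2 beside it read 5.53 and 6.88%, 8.43 and 8.55%, 26.0 and 21.6%, 21.6 and 20.5%, 19.1 and 16.2%, and 17.1 and 17.5% in the same order of groups. Here too the stem cells were lowest, and E12.5 PGCs touched the range of E9.5 PGCs.

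The Zdbf2 exon row, which also covers the unmethylated first exon, ran from 2.16% in an ESC library to 9.16% in both E9.5 libraries. Zdbf2 shore 1 (chr1:63271062-63273062), 203 bp before the gene, varied from 0 to 15.0% with both of these values in groups whose libraries disagreed, and its groups mostly overlapped. A pair of shores had too few levels to compare. Dlk1 shore 1 (chr12:109453847-109455848) was listed in 6 libraries, at 0 and 5.56% in ESCs, 8.97% in a pESC library, 5% in an ESC-PGCLC library, and 0 and 2.78% in pESC-PGCLCs. Zdbf2 shore 2 (chr1:63307156-63309156) was listed only in a pESC library, at 19.4%.

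**Figure D2:**
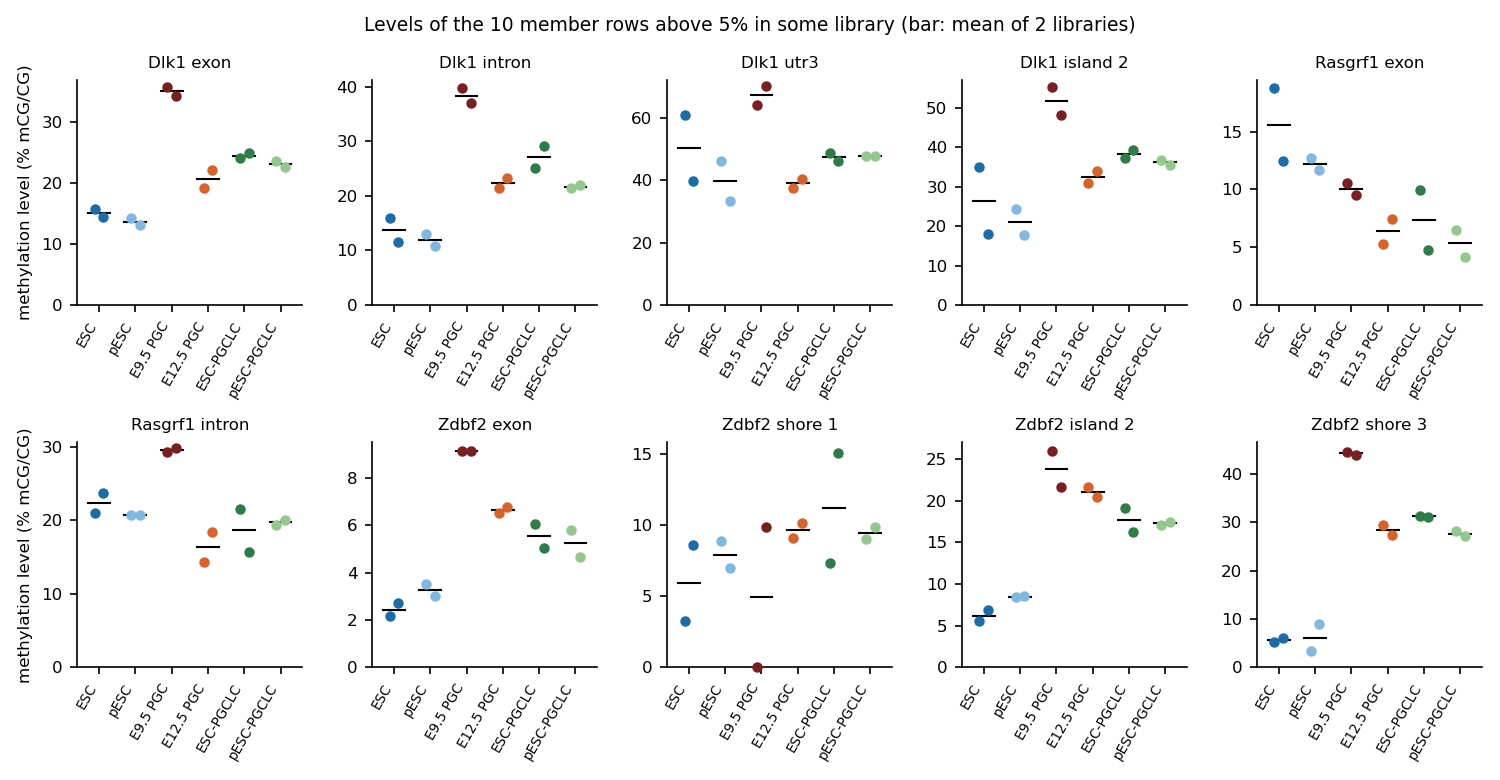
Methylation level (% mCG/CG, vertical axes starting at 0 and differing between panels) of the 10 rows above 5% in some library, with 1 point per library and a bar at the mean of 2. E9.5 PGCs are highest in 8 of the 10 panels, the exceptions being the Rasgrf1 exon row and Zdbf2 shore 1. Their library medians over features listed everywhere, 35.1 and 34.0%, were also the highest of all libraries. No share of all features with E9.5 PGCs highest is given, so the count is not read as a trait of these genes.

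**Figure D3:**
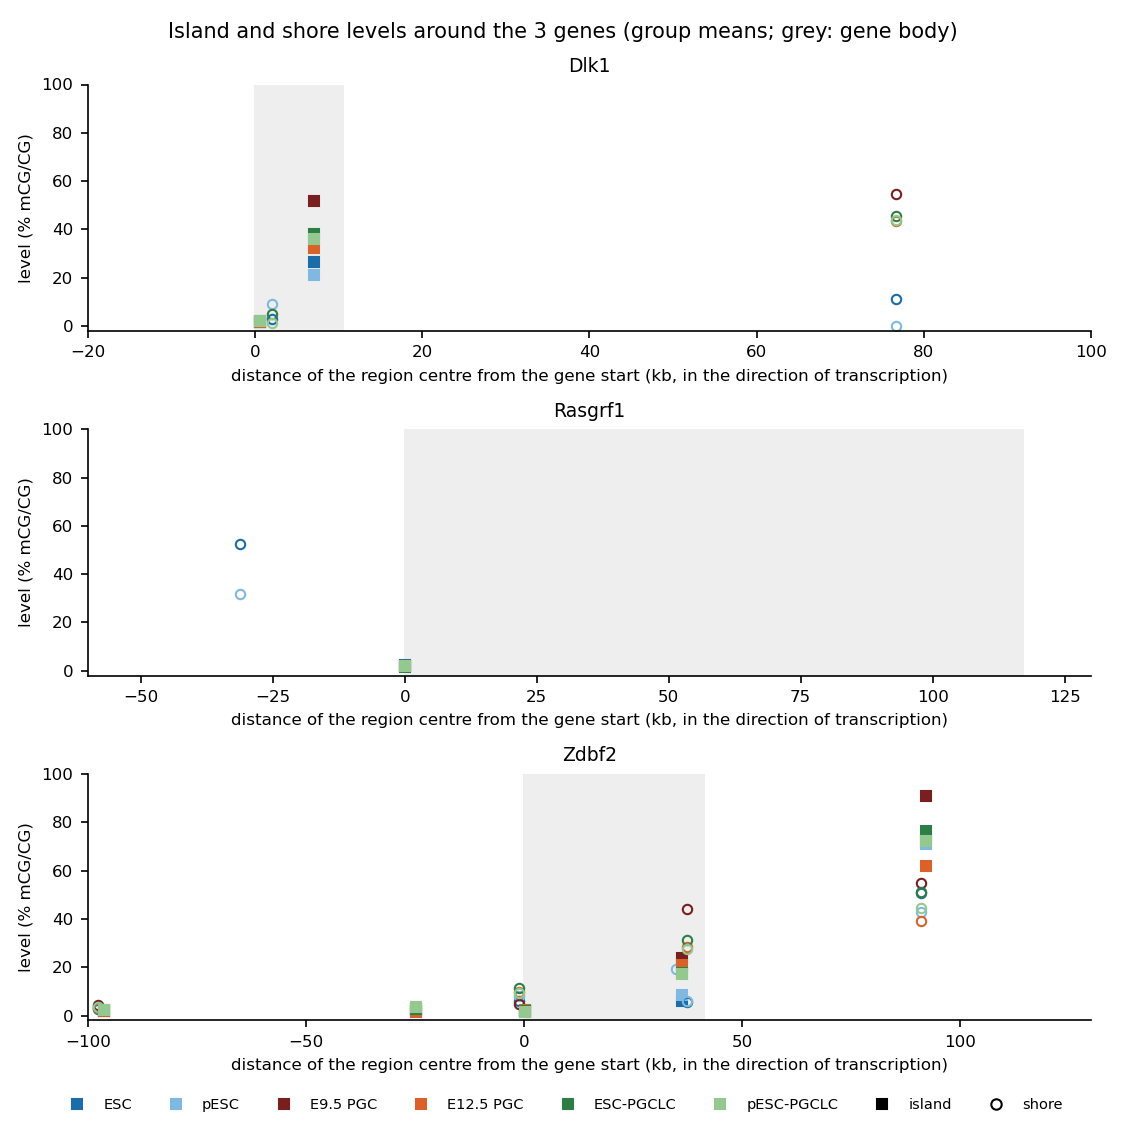
Group mean level (% mCG/CG, vertical axis) of islands (squares) and shores (circles) against the distance of their centres from the gene start in kb, with the gene body in grey, neighbouring regions outside it included and means taken over the libraries that list a level. The first islands of the 3 genes lie near 2%, whereas Dlk1 island 2, about 7 kb into the gene, reaches 51.7% in E9.5 PGCs and Zdbf2 shore 3 reaches 44.2%.

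Stem cells without a paternal genome were first compared with biparental ones, the contrast in which a sperm-methylated region would differ. With limma on log2 odds and Benjamini-Hochberg adjustment over 148012 features, no row of the 3 genes was called (adjusted p under 0.05 and means at least 10 points apart), none of the 19 had an unadjusted p under 0.05, and 0% of all features were called in either direction. At an unadjusted p under 0.05 there were 2054 features. The median difference of the 19 rows was -0.162 points (pESC minus ESC), against -0.00800 over all features. The Dlk1 3′ UTR row differed most, with means of 39.9% ± 9.07 in pESCs and 50.4% ± 14.9 in ESCs, a log2 odds difference of -0.61 (95% interval -1.83 to 0.61). For Dlk1 island 2 the interval was -1.57 to 0.83 and for Rasgrf1 exons -1.25 to 0.52. Intervals of this width do not show that the origins had equal levels. Of 55 rows of genes methylated in the oocyte, 53 were higher in pESCs, with a median difference of 12.4 points. Of these 55 rows, 33 had an unadjusted p under 0.05 (limma), yet none was called. An absence of calls in this comparison is therefore not an absence of difference.

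The known control regions lie outside the rows of the 3 genes, so neighbouring rows were read beside them. None of these was called. Of the rows around Rasgrf1, 10 of 20 were higher and 10 lower in pESCs than in ESCs, and in the Dlk1 domain 16 of 21 were higher and 5 lower, with median differences of 0.0378 and 0.242 points. The rows described next are those at or near the control regions, not a sample of the lists. How far each of them overlaps a control region was not examined. A shore 30236 bp upstream of Rasgrf1 (chr9:89877672-89879672) had 57.9 and 47.5% in ESCs and 38.8 and 25.0% in pESCs, without overlap, and no level in any germ cell library. The difference was -20.8 points and was not called. This shore was named after its values were seen, so no p-value is given for it. In the Meg3 promoter row the ESC libraries were at 24.9 and 28.5% and the pESC libraries at 17.5 and 22.1%, again without overlap (log2 odds difference -0.55, SE 0.34, adjusted p 1, limma). The shore between Dlk1 and Meg3 (chr12:109528472-109530473), 65136 bp past Dlk1, was listed in a single library of each origin, at 11.1% in ESCs and 0% in pESCs. At H19, another locus methylated in sperm, the promoter row was at 60.3 and 61.6% in ESCs and 52.6 and 39.9% in pESCs (-14.7 points, adjusted p 1, limma).

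In the rows around Zdbf2, 9 of 20 were higher and 11 lower in pESCs, with a median difference of -0.123 points and none called. The Gpr1 intron row, the one of them with an unadjusted p under 0.05, was higher. This row, within whose span the far Zdbf2 start printed above lies, read 2.12 and 2.36% in ESCs but 15.4 and 22.8% in pESCs. It was at 86.7 and 85.4% in E9.5 PGCs, 49.5 and 55.9% in E12.5 PGCs, 58.1 and 58.3% in PGCLCs from ESCs, and 49.1 and 55.5% in PGCLCs from pESCs. The higher level in pESCs (log2 odds difference 2.88, SE 0.37) did not pass the adjustment over all features (adjusted p 0.301, limma). The row was picked out of these 20 by its unadjusted p, so that p is not given for it.

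**Figure D4:**
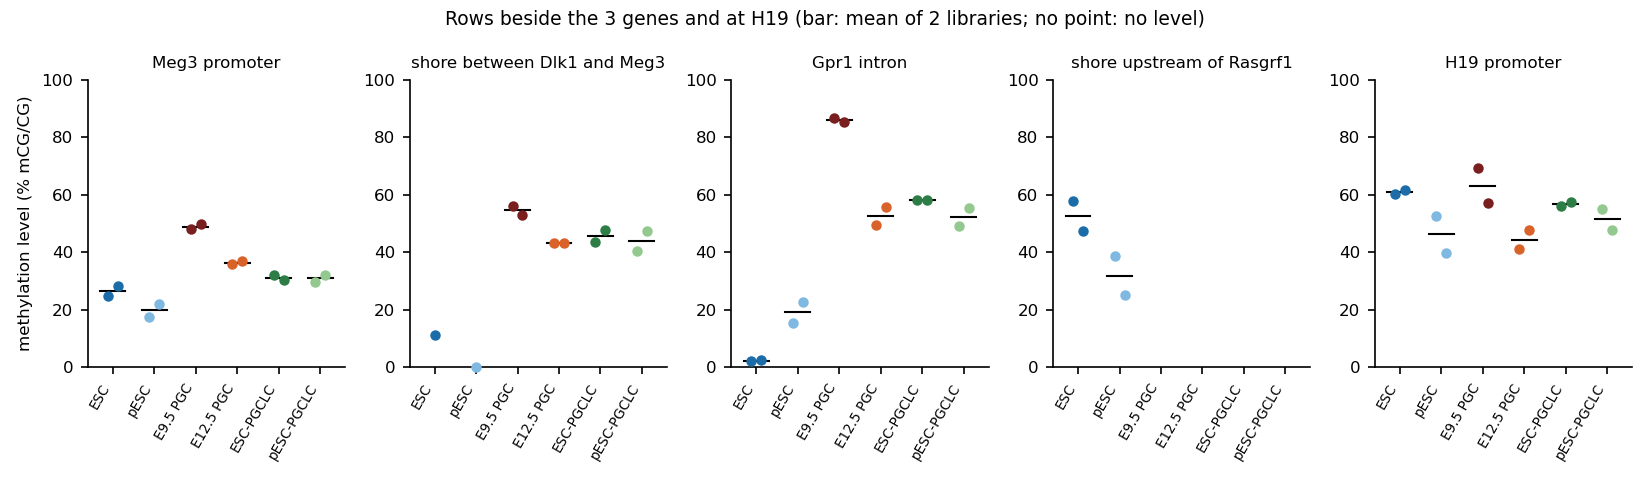
Methylation level (% mCG/CG, 0 to 100) of 4 rows beside the 3 genes and of the H19 promoter row, 1 point per library, bar at the mean of 2, no point where no level was listed. pESC libraries lie below ESC libraries at the Meg3 promoter, the shore upstream of Rasgrf1 and H19, and above them in the Gpr1 intron row.

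Between E9.5 and E12.5, when female PGCs erase methylation, 6 of 19 rows fell and none rose. The background of features called lower was 49.6% of 137202, so the members' share of 31.6% was below it, with 9 of the 19 rows under 5% in every library. The Dlk1 3′ UTR row fell by 28.3 points (log2 odds difference -1.66, SE 0.16, adjusted p 0.000216), Dlk1 island 2 by 19.2, introns by 16.0 and exons by 14.4 points. Zdbf2 shore 3 fell by 15.8 points (adjusted p 0.000280) and the Rasgrf1 intron row by 13.2 points (adjusted p 0.00525). The Zdbf2 exon row passed the adjusted p at 0.0325 but differed by -2.52 points. Zdbf2 island 2 went from 23.8% ± 3.08 to 21.1% ± 0.806 and was not called.

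Over all features the median difference between E12.5 and E9.5 was -11.5 points, or -0.86 in log2 odds, and by class it was -23.8 points for 3′ UTR rows, of which 81.4% were called lower, -16.6 for introns (64.0%) and -9.46 for exons (47.6%). Centring subtracts a library's median from all its rows. Over features listed in all 12 libraries the medians were 35.1 and 34.0% in E9.5 PGCs and 19.2 and 19.8% in E12.5 PGCs. A row with an unchanged level, such as the 9 under 5%, therefore reads as higher at E12.5 by construction, without a rise in level. With every library centred on its own median, 12 rows were called, 11 of them higher. No share of all features after centring is given beside this count, so it is not read as a trait of the 3 genes. Of the 6 that fell only the Dlk1 3′ UTR row remained called, at -12.3 points (adjusted p 0.0337, limma). Dlk1 exons moved to 1.63, Rasgrf1 introns to 2.74 and Zdbf2 shore 3 to 0.183 points. As a share of the E9.5 level, E12.5 PGCs kept 57.9% in the Dlk1 3′ UTR row, 58.2% in introns and 62.8% in island 2, and 55.3% in Rasgrf1 introns, against class means of 64.0, 64.2, 72.4 and 64.2%. Zdbf2 island 2 kept 88.5%, above the island mean of 72.4%. The exon rows kept 72.5% in Zdbf2, 63.3% in Rasgrf1 and 59.0% in Dlk1, against an exon mean of 63.4%. Zdbf2 shore 3 kept 64.25%, against a shore mean of 64.73%. Differences between rows in the share kept were not tested.

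**Figure D5:**
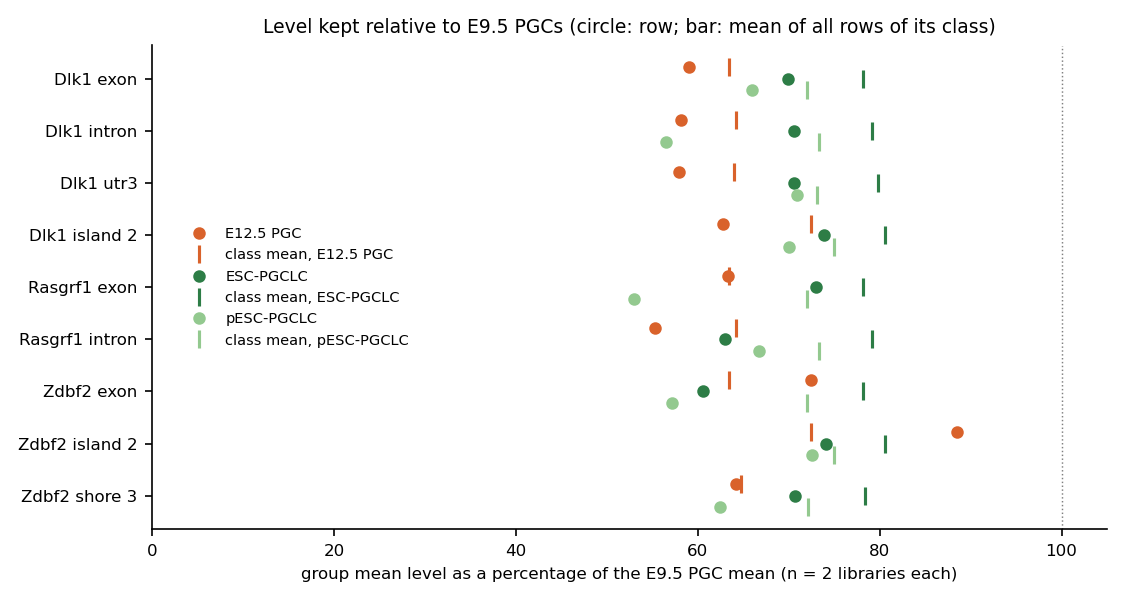
Group mean level as a percentage of the E9.5 PGC mean (horizontal axis), with circles for 9 rows of the 3 genes and bars for the mean of all rows of the same class, for E12.5 PGCs and both PGCLC groups. Dlk1 and Rasgrf1 circles lie at or left of their class bars. In E12.5 PGCs, Zdbf2 island 2 and the Zdbf2 exon row lie to the right, at 88.5 and 72.5%.

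PGCLCs were set against both stages to place them. Libraries of both origins are listed with 2 days as epiblast-like cells and 4 days of PGCLC induction. Against E9.5 PGCs, ESC-PGCLCs were lower in the same 6 rows, with 29.6% of all features called lower. The Dlk1 3′ UTR row was lower by 19.8 points on mean levels of 47.5 and 67.3%, and the row least apart, Dlk1 exons, differed by -10.5 points (adjusted p 0.00440). pESC-PGCLCs were lower in 5 rows, against 40.2% of all features, namely the 4 Dlk1 body rows (-19.6 points in the 3′ UTR, -16.7 in introns, -15.5 in island 2 and -11.9 in exons) and Zdbf2 shore 3 (-16.6 points, adjusted p 0.000468). The Rasgrf1 intron row missed the 10-point minimum there, at -9.86 points with an adjusted p of 0.0274. None rose in either comparison, and with libraries centred on their medians none of these 6 and 5 calls remained. Both comparisons share the E9.5 libraries. Without E9.5 replicate 1, ESC-PGCLCs differed in 3 rows, Zdbf2 shore 3 (-12.7), Dlk1 island 2 (-10.1) and the Dlk1 3′ UTR (-22.8 points).

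Against E12.5 PGCs, no row was called for ESC-PGCLCs, where 22.8% of all features were, and none for pESC-PGCLCs, where 7.1% were. Of the Dlk1 rows, 5 had an unadjusted p under 0.05 in ESC-PGCLCs (limma), all higher than in E12.5 PGCs. Over all features, 61104 of 137202 had such a p, and 105947 were higher than in E12.5 PGCs. The lowest adjusted p of a member row was 0.0547, for the Dlk1 3′ UTR row at 8.51 points higher (interval of the log2 odds difference 0.11 to 0.87). For pESC-PGCLCs 2 member rows had an unadjusted p under 0.05, as did 42266 of the 137202 features (limma). The lowest adjusted p of a member row, 0.0513, belonged to the Zdbf2 5′ UTR row, at 1.63% against 2.77%. Dlk1 introns were at 21.7% ± 0.349 in pESC-PGCLCs and 22.3% ± 1.28 in E12.5 PGCs, an overlap, and 27.1% ± 2.92 in ESC-PGCLCs. Between the 2 kinds of PGCLC no row was called, with 0.0948% of all features called. Unadjusted p was under 0.05 in 2 member rows and in 26558 of the 137202 features (limma). These 2 rows were Dlk1 introns at -5.40 points (pESC-PGCLC minus ESC-PGCLC, adjusted p 0.205) and Zdbf2 shore 3 at -3.62 points (adjusted p 0.254).

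On induction from stem cells, the rise of a member row was largest at Zdbf2 shore 3 in both origins. From ESC to ESC-PGCLC, 3 of 19 rows rose and none fell, against 13.7% of all features called higher. Zdbf2 shore 3 rose by 25.5 points, from 5.70% ± 0.594 to 31.2% ± 0.117 (log2 odds difference 2.72, SE 0.38, adjusted p 0.00268). Zdbf2 island 2 rose by 11.4 points (adjusted p 0.00220) and Dlk1 introns by 13.4 points (adjusted p 0.0162). From pESC to pESC-PGCLC, 1 row rose, Zdbf2 shore 3 by 21.5 points (adjusted p 0.00526, limma), against 8.91% of all features. An unadjusted p under 0.05 was found in 7 of the 19 rows and in 30532 of 136848 features. Zdbf2 island 2 passed the adjusted p there at 0.0149 but differed by 8.79 points, from 8.49% ± 0.0841 to 17.3% ± 0.235.

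Over all shores the median difference was 0.987 points from ESCs and 0.727 from pESCs, and 15.4 and 11.2% of shores were called higher. The gain at Zdbf2 shore 3 remained called with libraries centred on their medians, at 12.8 and 11.5 points. The calls after centring were 1 higher and 11 lower for cells of ESC origin and 1 higher and 3 lower for pESC origin. Library medians were higher in PGCLCs than in stem cells, so a row with an unchanged level reads as lower after centring. The Zdbf2 island 2 difference turned to -1.32 points for ESC origin. The Rasgrf1 exon row was lower in PGCLCs of both origins, with differences of -8.26 and -6.87 points, without overlap between stem cells and PGCLCs, but with adjusted p-values of 0.0918 and 0.114. The ESC libraries differed from each other (mean level of 25.9 and 21.3% over features listed everywhere), and Dlk1 island 2 was at 35.02% in the first and 17.9% in the second. Without ESC replicate 1, 5 rows were called higher in ESC-PGCLCs, the further ones being Dlk1 island 2 at 20.3 points and Dlk1 exons at 10.04 points.

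The change on induction was then compared between origins. No row was called and none had an unadjusted p under 0.05 (limma). Of all 136848 features, 0.0365% were called and 4053 had such a p. Of 54 rows of genes methylated in the oocyte, 9 (16.7%) were called, all lower. Zdbf2 shore 3 had an origin difference of -4.02 points (pESC minus ESC, log2 odds interval -1.49 to 1.06), and the Dlk1 3′ UTR difference was 10.7 points (interval -0.77 to 2.02), neither larger than the spread between these libraries.

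Neighbouring genes were counted from lists. In the domain from Begain to Dio3 around Dlk1, 10 of 19 rows (52.6%) fell between E9.5 and E12.5, near the 49.6% of all features, among them Meg3 exons (-25.6 points), Rian introns (-25.8 points) and the exons of the retrotransposon-derived gene Rtl1 (-23.1 points). Of the rows around Zdbf2, 4 of 19 (21.1%) fell, led by the Gpr1 intron row at -33.4 points (adjusted p 0.000103), and of those around Rasgrf1, 2 of 19 (10.5%), Minar1 exons and the Tmed3 3′ UTR, both shares below that of all features. None of these lists held a row that rose. The H19 promoter row fell by 18.8 points, the one of 5 H19 and Igf2 rows that was called, and 47 of 54 rows (87.0%) of genes methylated in the oocyte fell. In ESC-PGCLCs against ESCs the Gpr1 intron row gained 56.0 points and in pESC-PGCLCs against pESCs 33.2 points (adjusted p 7.64e-05 and 0.00200). Its origin effect of -22.7 points had an adjusted p of 0.105.

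The Meg3 promoter row had levels of 48.0 and 50.0% in E9.5 PGCs, 36.0 and 36.8% in E12.5 PGCs, 32.0 and 30.4% in PGCLCs from ESCs, and 29.6 and 32.2% in PGCLCs from pESCs. Both PGCLC groups thus lay below E12.5 PGCs, without overlap, at differences of -5.23 and -5.50 points that did not pass the adjusted p (0.0616 and 0.0893). Dlk1 exons and island 2 in both PGCLC groups lay above E12.5 PGCs, also without a call, and Dlk1 introns in pESC-PGCLCs overlapped them. The shore between Dlk1 and Meg3 was at 56.1 and 53.2% in E9.5 PGCs and 43.3% in both E12.5 libraries. PGCLCs from ESCs stood at 43.7 and 47.8% there, above E12.5 PGCs. PGCLCs from pESCs stood at 40.4 and 47.6%, on either side of E12.5 PGCs. Differences between the Meg3, Dlk1 and shore rows were not tested.

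Rows most like the members over the 12 libraries were found by the root mean square difference of level within a class. Nearest to the Dlk1 3′ UTR row among 3714 others were the 3′ UTR rows of Tmem74b, Cspg5 and Fgf11, 3.71 to 4.17 points away. Nearest to the Rasgrf1 intron row among 18555 were Metrnl, Peak1 and Mllt3, 2.06 to 2.19 points away, and nearest to the Zdbf2 exon row among 19000 were Twf2, Ckb and Rnf122, 0.682 to 0.884 points away.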

How the data were processed

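RRBS levels of 12 libraries were analysed. Per the study's methods, the authors aligned directional bisulfite reads to mm10 with Bismark 0.16.3 and Bowtie2, kept unique best alignments and corrected for non-conversion. The coverage minimum, promoter definition and annotation version are not given in the sources used here. The deposited values are a fraction per feature, methylated CG calls over all CG calls, with no counts. The depth is therefore unknown, no counting interval was given and no coverage minimum could be varied.

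Gene identifiers were matched to GENCODE M21 (30060 of 30073). Sequences came from RefSeq GRCm38.p6, in which 99.99% of deposited islands had a CpG observed/expected ratio above 0.6 (2.31% of windows shifted away from them). Windows before starts came from RefSeq promoters and matched all 3 genes.

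Levels were compared with limma 3.58.1 (R 4.3.3) on log2((level + 0.01)/(1 - level + 0.01)), in 3 fits of features listed in every library used (4 stem cell libraries, 8 germ cell libraries, or 8 of stem cells and PGCLCs), with Benjamini-Hochberg adjustment over all features. A row was called at adjusted p under 0.05 and means at least 10 points apart. Errors beside levels are SDs of 2 libraries. Groups of 2 cannot give an exact permutation p under 0.05, so none was computed. The method was tested on simulated data. All member rows were named or counted, rows most alike were the nearest 3 by root mean square difference in the class where the member had its widest range of group means, and of the neighbour lists Meg3, H19 and called rows could be named. The listed shore upstream of Rasgrf1 was named after its values were seen. The members and lists were chosen with earlier results of these data known. Alternatives were another offset (0.1), untransformed levels, 1 fit of all 12 libraries, centring on the library median, a replicate block, no minimum difference and leaving out each library.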

Additional observations from a re-analysis of the deposited data

How the results depend on the processing

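Centring each library on its median changed most calls. It shifts all rows of a library together, so rows with unchanged levels gain a difference between groups whose medians differ. It raised the rows called between E12.5 and E9.5 PGCs from 6 to 12 (11 higher), for pESC-PGCLCs against E9.5 from 5 to 9, for ESC-PGCLCs against ESCs from 3 to 12 (11 lower) and for pESC-PGCLCs against pESCs from 1 to 4. It reversed 6 of 21 single calls. Between E12.5 and E9.5 PGCs these were Dlk1 exons (1.63 points), Dlk1 introns (-0.0618 points, positive in log2 odds), Rasgrf1 introns (2.74) and Zdbf2 shore 3 (0.183). The others were Dlk1 exons in pESC-PGCLCs against E9.5 PGCs (0.146) and Zdbf2 island 2 in ESC-PGCLCs against ESCs (-1.32). A further 12 lost their call, and 3 kept it.

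One fit of all 12 libraries left 3 rows in ESC-PGCLCs against E9.5 PGCs. With no minimum difference 8 rows passed for pESC-PGCLCs against E9.5 PGCs, 5 for ESC-PGCLCs against ESCs and 4 for pESC-PGCLCs against pESCs. Leaving out 1 library gave 3 to 6 rows for ESC-PGCLCs against E9.5 PGCs and 2 to 5 for ESC-PGCLCs against ESCs, and of 84 single calls so recomputed 74 held. The larger offset and untransformed levels kept all 21. Coverage could not be varied. Counts under the alternative settings are those of the 3 genes alone, without the share of all features called under the same setting.

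Replicate numbers are shared between groups, but nothing says what same-numbered libraries have in common. Their deviations correlated at 0.518 between ESCs and pESCs and between -0.0602 and 0.183 elsewhere. With a replicate block 6, 6 and 5 rows were called against E9.5 PGCs (E12.5, ESC-PGCLC, pESC-PGCLC), 3 and 1 on induction and 0 elsewhere, which changed no call.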
